A study of Mus musculus with 4 samples.

Results

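Interleukins are secreted proteins through which blood, immune and stromal cells signal to each other, and each acts through a receptor of 1 or more chains on the receiving cell. The genes described here are all rows of a mouse RNA-seq count table whose symbol begins with Il and a digit and whose listed biotype is not a pseudogene. There were 85 such rows (83 symbols) among 54532 gene rows, and the choice used no expression value. By known role, 36 rows were ligands or ligand subunits, 4 were soluble inhibitors, 43 were receptor chains including decoys and receptor-like proteins, and 2 were others (Il4i1, which encodes an enzyme, and the noncoding Il1bos). Il11ra2 held 3 of the receptor rows.

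RNA came from bone marrow mesenchymal stem cells (BMSCs), stromal cells able to give rise to osteoblasts and adipocytes, of C57BL/6J mice aged 1 month. The knockout group held 2 mice with floxed Rheb alleles and Ucp1-Cre, and the control group held 2 littermates with the floxed alleles alone. The Ucp1 promoter directs Cre recombinase to brown adipocytes, and Rheb is the GTPase that switches on the kinase complex mTORC1. How the cells were isolated or grown is not given in the sources used here.

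Total counts were 17476868 and 17425669 in the libraries labelled knockout, against 18776563 and 19001878 in controls. Rheb had 129.0 and 121.2 CPM (read counts scaled to library size, with TMM factors) in the libraries labelled knockout, against 89.6 and 81.4 CPM in controls (edgeR's quasi-likelihood test, log2 fold change 0.55 ± 0.19 SE, adjusted p = 1.00). The targeted gene was thus not lower in the libraries labelled knockout, and that group is called by its label throughout. Ucp1, whose promoter drives Cre, had 0 and 1 counts in the libraries labelled knockout, against 0 and 0 in controls. All animals are labelled male, but Xist, which coats and silences an X chromosome in female cells, had 31103 counts in the replicate 1 labelled knockout and 19502 in control replicate 1, and 2 and 8 counts in the replicates 2 of the same groups. Ddx3y, a gene of the Y chromosome, had 0 counts in both replicates 1. It had 1631 counts in replicate 2 labelled knockout and 1945 in control replicate 2. Each group therefore held 1 library with high Xist and no Ddx3y reads, and 1 with the reverse, against the male labels. This difference cannot be told apart from replicate number. Ratios within a replicate number are given beside the group values. TPM are counts divided by exon length and scaled to the same total in every library, without TMM factors. A list of 11 stromal markers summed to 10458 and 10695 TPM in the libraries labelled knockout, against 9301 and 13373 TPM in controls. Most of that sum was Col1a1 and Col1a2. A list of 8 macrophage markers summed to 18281 and 21401 TPM in the libraries labelled knockout, against 23185 and 15083 TPM in controls. Most of this sum was Lyz2, at 15890 and 18783 TPM in the libraries labelled knockout, against 20500 and 13397 TPM in controls. Every other marker of the list also had reads in every library. Macrophage RNA was therefore present beside stromal RNA in every library, and in such bulk samples fewer cells of a type and less RNA per cell cannot be told apart.

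Interleukin receptors fall into a few families. Type I receptors share chains such as Il2rg, Il6st and Csf2rb and signal through JAK kinases and STAT transcription factors, as do the type II receptors of the IL-10 family. Receptors of the IL-1 family signal through the adaptor Myd88, and those of the IL-17 family through the adaptor Traf3ip2. In marrow, IL-7 made by stromal cells is needed for B cell development, and IL-1 and IL-6 are known to promote bone resorption.

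The letters of the TATA box, on either strand, were more frequent before the starts of ligand genes than of receptor genes, a difference given here without a test. RefSeq windows (GRCm38.p6) were found for 67 of the 83 symbols, and the 250 bases before each start were searched on both strands. The letters TATAAA were found for 11 of 27 ligands (40.7%) and for 2 of 34 receptors (5.88%), against 14.3% of 27025 genes. The AP-1 letters TGANTCA were found for 14 of the 67 (20.9%, against 7.82% of all genes), the STAT letters TTCNNNGAA for 9 (13.4%, against 8.13%), the NF-kB letters (GGG, any 2 bases, then TTTCC) for 6 (8.96%, against 1.65%) and the PU.1 letters GAGGAAGT for 2 (2.99%, against 2.79%). A match in letters is a description and shows no binding. The windows below are those of the most abundant ligand and receptor by TPM (Il18 and Il6st), of the more abundant detected inhibitor (Il1rn), and of Il1b, the ligand that this inhibitor opposes. Capitals mark matches. Each sequence runs 5′ to 3′ on the gene's own strand and ends just before a start, and Il1rn has 3 listed starts, of which 1 is shown.
Il18 (chr9:50554450-50554699, plus strand): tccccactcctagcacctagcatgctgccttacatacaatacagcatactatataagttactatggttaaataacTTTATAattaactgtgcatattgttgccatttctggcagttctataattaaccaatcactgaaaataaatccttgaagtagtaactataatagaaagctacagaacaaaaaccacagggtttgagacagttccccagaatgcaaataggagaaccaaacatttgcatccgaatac
Il1b (chr2:129371140-129371389, minus strand): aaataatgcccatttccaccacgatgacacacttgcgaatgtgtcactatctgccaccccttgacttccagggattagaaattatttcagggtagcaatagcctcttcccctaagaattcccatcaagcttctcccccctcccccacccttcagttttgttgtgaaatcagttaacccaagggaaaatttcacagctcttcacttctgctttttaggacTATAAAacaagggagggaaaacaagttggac
Il1rn (chr2:24336610-24336859, plus strand): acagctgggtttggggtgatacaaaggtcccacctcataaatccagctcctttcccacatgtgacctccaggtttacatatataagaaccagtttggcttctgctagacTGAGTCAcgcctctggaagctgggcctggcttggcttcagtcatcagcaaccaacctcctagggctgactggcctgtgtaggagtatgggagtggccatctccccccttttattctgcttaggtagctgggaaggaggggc
Il6st (chr13:112463820-112464069, plus strand): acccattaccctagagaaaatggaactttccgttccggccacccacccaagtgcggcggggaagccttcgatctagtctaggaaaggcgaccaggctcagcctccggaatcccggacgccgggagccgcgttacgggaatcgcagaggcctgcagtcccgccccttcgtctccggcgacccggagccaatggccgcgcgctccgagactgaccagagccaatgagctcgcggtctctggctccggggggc
Il1b holds TATAAA with its first base 31 bases before the start, the usual place of a TATA box. In Il18 the same letters stand on the opposite strand, 175 bases before the start, away from that place. Il1rn holds an AP-1 match 141 bases before the start shown. The Il6st window holds none of the 5 motifs, and with at most 1 match in each window shown, none overlap.

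Receptor transcripts outweighed ligand transcripts in all 4 libraries. Receptor genes summed to 738.1 and 778.7 TPM in the libraries labelled knockout, against 746.9 and 659.9 TPM in controls. Ligand genes summed to 107.1 and 88.9 TPM in the libraries labelled knockout, against 135.3 and 75.9 TPM in controls. Soluble inhibitors summed to 140.5 and 95.4 TPM in the libraries labelled knockout, against 98.7 and 127.3 TPM in controls. The groups overlapped for ligands and for inhibitors, and for receptors the lowest sum was that of control replicate 2. Receptors exceeded ligands 6.89-fold and 8.76-fold in the libraries labelled knockout, against 5.52-fold and 8.70-fold in controls. The mean log2 ratio of ligands to receptors was -2.96 in the libraries labelled knockout and -2.79 in controls (exact two-sided permutation p = 0.667, where 2 libraries against 2 allow no p below 0.333). This difference of -0.16 was -0.32 within replicate 1 and -0.01 within replicate 2. It turned to 0.16 without control replicate 1 and to 0.0082 without replicate 2 of the group labelled knockout.

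**Figure D1:**
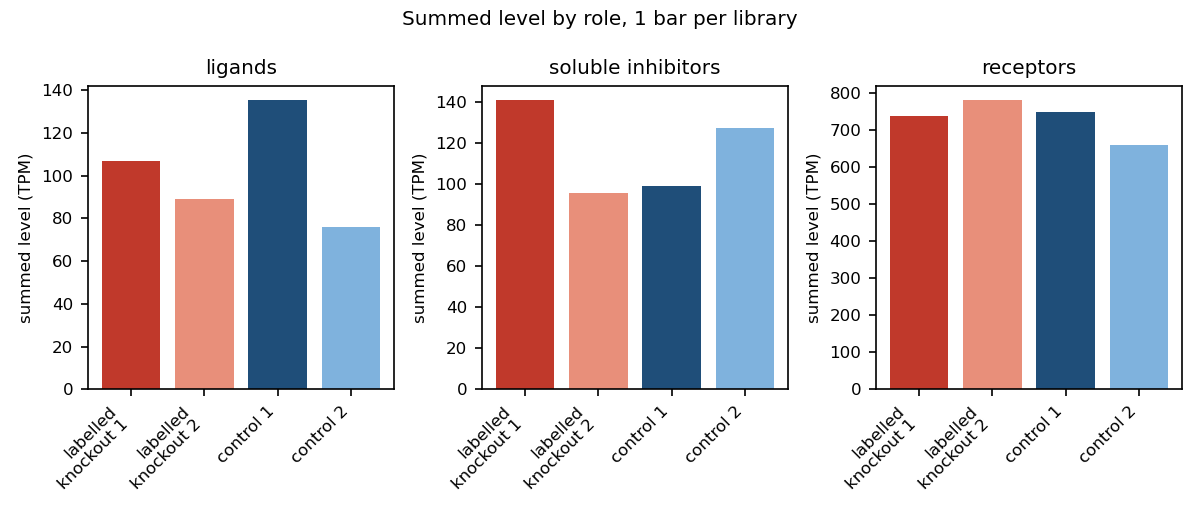
Summed level (TPM, y axes from 0, scales differing between panels) of ligand, soluble inhibitor and receptor genes, with 1 bar per library and the libraries labelled knockout left of the controls. Receptors sum to 659.9 to 778.7 TPM and ligands to 75.9 to 135.3 TPM, and no panel separates the groups.

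Tested receptors also had the higher median level. Of 28 receptor rows with enough reads to be tested, 14 had a mean of at least 10 TPM, as did 3 of 13 such ligands. The median of the mean levels was 14.8 TPM for receptors and 5.23 TPM for ligands, a 2.82-fold difference between the classes. These medians cover only rows that passed the filter on low counts. Ligand transcripts were concentrated in few genes, with Il18, Il1b, Il15 and Il16 holding 64.9% of the summed level. The 5 most abundant receptors, Il6st, Il4ra, Il10ra, Il10rb and Il13ra1, held 55.5% of theirs.

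Several receptors were present above 20 TPM in every library while their ligand was not seen. Ligands and receptor chains were set side by side for 27 interleukin systems, with each receptor judged in each library by its scarcest chain there. Both sides reached 1 TPM in every library in 8 systems, namely IL-1, IL-36, IL-15, IL-4, IL-7, IL-10, IL-34 and IL-16. The receptor alone did so in 8, namely IL-33, IL-13, IL-21, IL-3, IL-6, IL-11, IL-19/20/24 and IL-17A/F. In IL-13, IL-21, IL-3 and IL-17A/F the ligands had 0 counts in every library, which allows up to 0.173 CPM in a library on 3 counts (counting error only). The ligand alone reached 1 TPM everywhere in IL-18 and IL-27, and neither side did in the other 9 systems. In IL-18 and IL-27 the scarcest receptor chain was present but lay near that level. For IL-18 this was Il18r1, at 1.66 and 1.73 TPM with the knockout label, against 1.42 and 0.635 TPM in controls. For IL-27 it was Il27ra, at 0.541 and 1.36 TPM with the knockout label, against 1.54 and 0.978 TPM in controls.

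**Figure D2:**
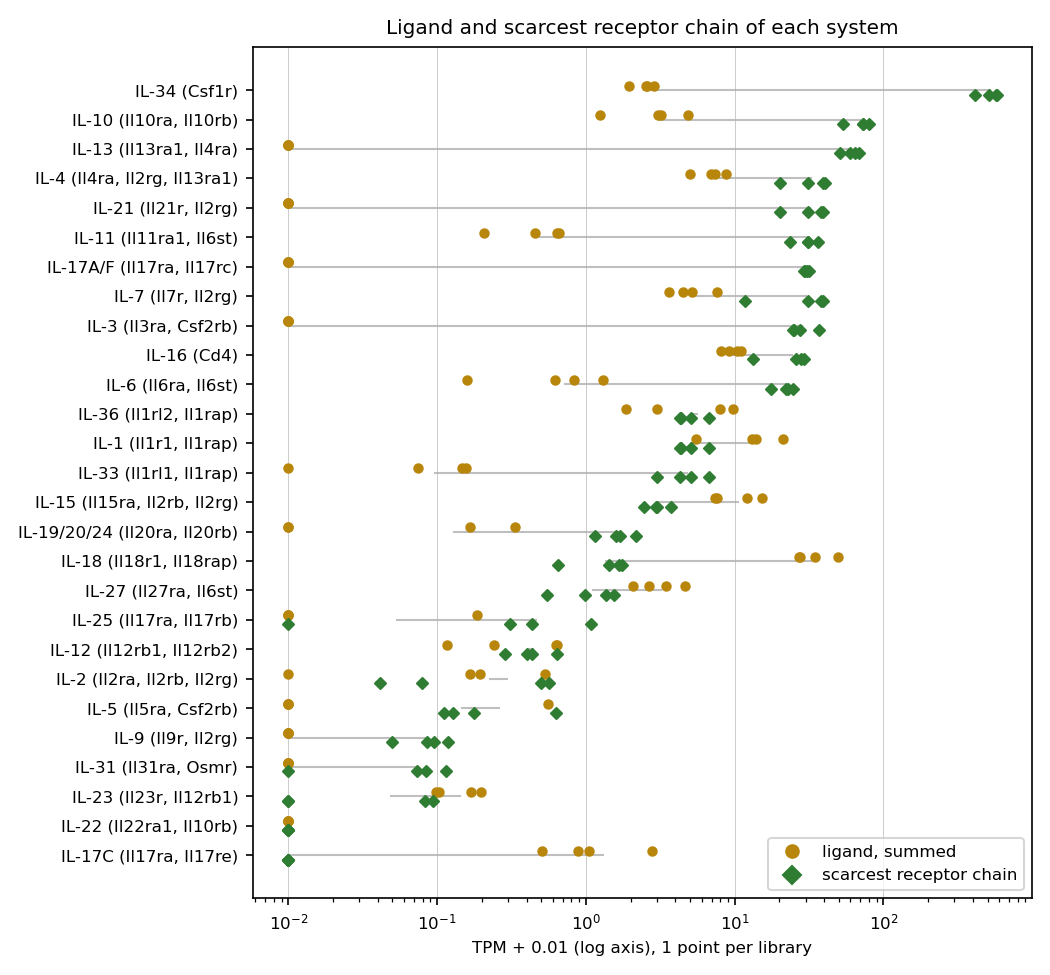
Level (TPM + 0.01, log x axis) of the summed ligands (gold) and of the receptor chain that was scarcest in each library (green diamonds, chains of the receptor in brackets) in 27 systems, 1 point per library with the groups not told apart and a grey line between the means. Points at 0.01 had 0 counts, as for the ligands of IL-13, IL-21, IL-3 and IL-17A/F beside receptors above 20 TPM.

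Among the ligands, Il18, an IL-1 family cytokine that is stored as a precursor, was the most abundant. Il18 had 34.6 and 27.1 TPM in the libraries labelled knockout, against 49.3 and 27.4 TPM in controls. Control replicate 1 was the highest, and control replicate 2 lay beside replicate 2 of the group labelled knockout. The inflammatory IL-1 cytokines Il1b and Il1a, of the same family, shared its highest library but not its lowest. Il1b had 11.01 and 12.6 TPM in the libraries labelled knockout and 17.1 and 4.34 TPM in controls. Il1a had 2.13 and 1.40 TPM with the knockout label, against 3.95 and 1.18 TPM in controls. Both were highest in control replicate 1 and lowest in control replicate 2, so that the libraries labelled knockout lay between the controls. Il1f9 (IL-36 gamma), a further member of that family, had 7.90 and 3.004 TPM in the libraries labelled knockout, against 9.68 and 1.86 TPM in controls. Its control values again enclosed those of the libraries labelled knockout.

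The ligands of type I receptors were led by Il15, which maintains NK cells and memory T cells. Il15 had 12.1 and 7.62 TPM in the libraries labelled knockout and 15.3 and 7.40 TPM in controls. Il7, the lymphocyte growth factor made by marrow stroma, had 7.64 and 3.64 TPM with the knockout label, against 4.49 and 5.18 TPM in controls. Il4, which drives alternative macrophage activation, had 8.73 and 5.003 TPM in the libraries labelled knockout, against 6.95 and 7.33 TPM in controls. For Il7 and Il4 the libraries labelled knockout enclosed both controls, and for Il15 the groups overlapped. The p28 subunit gene Il27 had 2.06 and 4.65 TPM in the libraries labelled knockout and 3.45 and 2.64 TPM in controls. Its partner subunit Ebi3, which is not named as an interleukin, had 44.8 and 42.9 TPM in the libraries labelled knockout, against 51.7 and 26.0 TPM in controls. Il6, an inflammatory cytokine, was scarce, with 0.605 and 0.816 TPM with the knockout label, against 1.30 and 0.148 TPM in controls. Those levels rested on 7 and 10 counts in the libraries labelled knockout, against 17 and 2 in controls.

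The remaining detected ligands belong to other families. Il16, a chemoattractant that binds CD4, had 9.18 and 10.4 TPM in the libraries labelled knockout, against 10.96 and 8.14 TPM in controls. Il10, which limits macrophage inflammation, had 3.04 and 3.17 TPM in the libraries labelled knockout and 4.81 and 1.24 TPM in controls. Il16 varied little between libraries, while Il10 differed most between the controls. Il17d, an IL-17 family ligand, had 3.13 and 3.11 TPM with the knockout label, against 2.62 and 4.66 TPM in controls. Il34, a ligand of the macrophage growth factor receptor Csf1r, had 1.93 and 2.53 TPM in the libraries labelled knockout, against 2.56 and 2.85 TPM in controls. Il34 was the only tested ligand whose groups did not overlap, with both libraries labelled knockout below both controls, although the nearest values differ by 2.53 against 2.56 TPM.

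The sum of the soluble inhibitors exceeded that of the ligands in 3 of 4 libraries, control replicate 1 being the exception, and most of it was Il1rn, the IL-1 receptor antagonist. Il1rn had 117 and 76.2 TPM in the libraries labelled knockout and 74.9 and 114 TPM in controls. Il18bp, which binds and blocks IL-18, had 23.4 and 19.2 TPM with the knockout label, against 23.8 and 13.4 TPM in controls. Il1rn was high in 1 library of each group, and Il18bp was lowest in control replicate 2. In every library Il1rn exceeded the sum of Il1a and Il1b, which was 13.1 and 13.97 TPM in the libraries labelled knockout, against 21.1 and 5.52 TPM in controls. Of the other inhibitors, Il1f5 and Il1f10 had no counts in any library.

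Shared and abundant chains of the type I receptors led the receptor class. Il6st, the signal-transducing chain gp130 of the IL-6 family and 14.1% of the receptor total, had 115 and 101 TPM in the libraries labelled knockout, against 91.1 and 107 TPM in controls. Its ligand-binding partners Il6ra and Il11ra1 had lower levels. Il6ra had 24.6 and 22.2 TPM in the libraries labelled knockout and 22.9 and 17.4 TPM in controls. Il11ra1 had 23.5 and 36.2 TPM with the knockout label, against 30.9 and 30.9 TPM in controls. Il27ra, which pairs with Il6st for IL-27, had 0.541 and 1.36 TPM in the libraries labelled knockout, against 1.54 and 0.978 TPM in controls. None of these 4 chains separated the groups.

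Il4ra, the chain shared by the IL-4 and IL-13 receptors, varied least. Il4ra had 87.7 and 87.2 TPM in the libraries labelled knockout and 88.5 and 87.1 TPM in controls. Il13ra1, which forms a receptor with Il4ra for both cytokines, had 68.8 and 50.9 TPM with the knockout label, against 63.8 and 59.9 TPM in controls. The highest Il4ra CPM was 1.07-fold the lowest over the 4 libraries, the smallest such ratio of any tested member. Il3ra, the alpha chain for the growth factor IL-3, had 25.2 and 36.97 TPM in the libraries labelled knockout, against 27.2 and 34.4 TPM in controls.

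The chains of the common gamma family given here differed in how much they varied, from 1.14-fold in CPM for Il21r to 16.3-fold for Il2ra. Il2rg, the common gamma chain, had 31.05 and 38.99 TPM in the libraries labelled knockout and 40.7 and 20.2 TPM in controls. Il7r, the IL-7 receptor alpha chain, had 31.6 and 54.5 TPM with the knockout label, against 38.02 and 11.7 TPM in controls. Il21r had 40.7 and 40.03 TPM in the libraries labelled knockout, against 38.1 and 34.9 TPM in controls. Il7r and Il2rg were lowest in control replicate 2, and Il21r lay within a 1.14-fold range of CPM. For Il2rg, 30.5% of its exon bases overlap Gm20489 on the same strand, and how shared reads were counted is not given in the sources used here. Il2rb, shared by IL-2 and IL-15, had 2.94 and 3.002 TPM in the libraries labelled knockout and 3.72 and 2.43 TPM in controls. Il15ra, which presents IL-15, had 5.43 and 6.46 TPM with the knockout label, against 5.005 and 3.07 TPM in controls. Il2ra, the high-affinity chain for IL-2, had the widest range of any tested member, its highest CPM being 16.3-fold its lowest on 15 and 2 counts in the libraries labelled knockout, against 15 and 1 in controls. Both replicates 1 were high for Il2ra and both replicates 2 low. Il12rb1, shared by IL-12 and IL-23, had 1.64 and 3.57 TPM in the libraries labelled knockout, against 1.99 and 1.40 TPM in controls.

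Both chains of the IL-10 receptor were abundant. Il10ra had 79.9 and 100.4 TPM in the libraries labelled knockout and 92.98 and 62.1 TPM in controls. Il10rb, which also serves IL-22 and other type II cytokines, had 72.4 and 73.1 TPM with the knockout label, against 80.3 and 53.7 TPM in controls. Both were lowest in control replicate 2. The 2 chains of the IL-20 receptor were scarce, and their groups did not overlap in opposite directions. Il20rb had 2.40 and 2.54 TPM in the libraries labelled knockout, against 1.68 and 1.58 TPM in controls. Il20ra had 2.16 and 1.14 TPM in the libraries labelled knockout and 2.75 and 4.74 TPM in controls. Il20rb was higher and Il20ra lower in both libraries labelled knockout than in either control.

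In the IL-17 receptor family, Il17ra and Il17rc form the receptor for IL-17A and IL-17F. Il17ra had 30.6 and 31.7 TPM with the knockout label, against 29.4 and 29.7 TPM in controls. Il17rc had 31.8 and 40.2 TPM in the libraries labelled knockout, against 32.7 and 47.3 TPM in controls. Il17rd, a receptor-like chain also known as an inhibitor of FGF signalling, had 2.81 and 2.72 TPM in the libraries labelled knockout and 3.16 and 4.90 TPM in controls. Il17ra was nearly level, at 1.11-fold from lowest to highest CPM, while Il17rc and Il17rd were highest in control replicate 2.

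A cluster of 6 genes of the IL-1 receptor family lies on the plus strand between 40074079 and 40551705 of chromosome 1 (mm10), and its genes differed in which library was highest. Il1r1, the signalling receptor for IL-1, had 21.5 and 20.5 TPM with the knockout label, against 15.6 and 22.8 TPM in controls. Il1rl2, the IL-36 receptor, had 10.4 and 7.70 TPM in the libraries labelled knockout, against 9.04 and 10.6 TPM in controls. Both were highest in control replicate 2. Il1rl1, the IL-33 receptor ST2, had 7.67 and 4.31 TPM in the libraries labelled knockout and 9.17 and 2.97 TPM in controls. Il18rap, the accessory chain for IL-18, had 5.16 and 3.26 TPM with the knockout label, against 5.27 and 1.60 TPM in controls. Il18r1, the chain that binds IL-18, had 1.66 and 1.73 TPM in the libraries labelled knockout, against 1.42 and 0.635 TPM in controls. These 3, and the scarce decoy receptor Il1r2 at 0.471 to 2.14 TPM, were lowest in control replicate 2. Il1rap, the accessory chain shared by the IL-1, IL-33 and IL-36 receptors, lies elsewhere and had 6.69 and 4.29 TPM in the libraries labelled knockout and 5.04 and 4.32 TPM in controls.

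**Figure D3:**
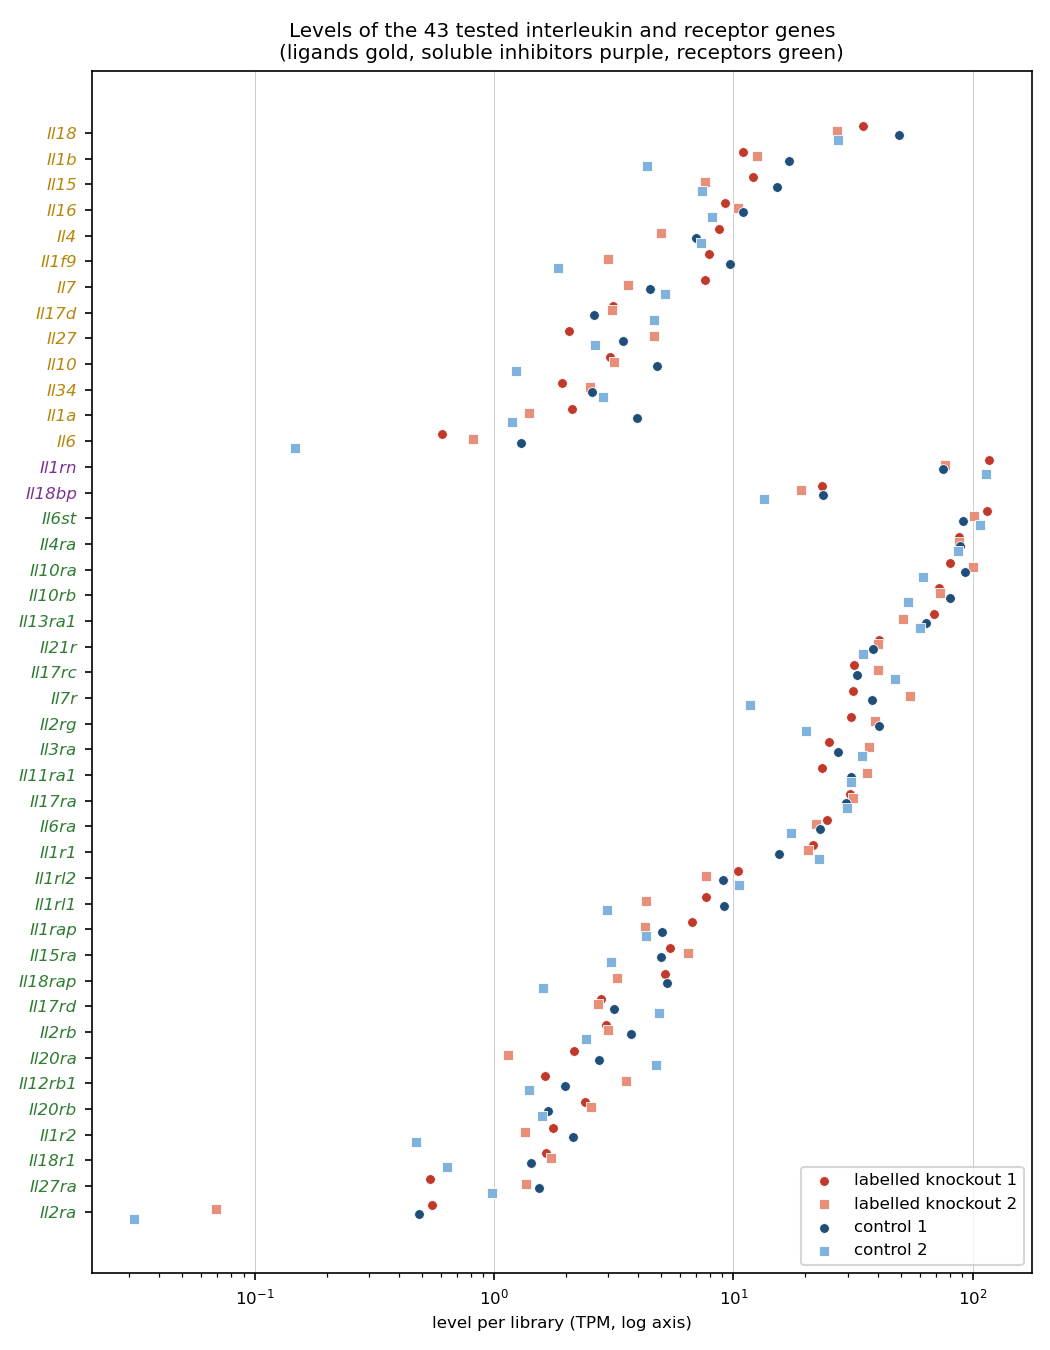
Level (TPM, log x axis) of the 43 tested genes in each library, with labelled knockout in red and control in blue, circles for replicate 1 and squares for replicate 2. Within each class the genes run from high to low, from Il18 to Il6 among ligands and from Il6st to Il2ra among receptors, and the palest blue squares (control replicate 2) often lie at the left.

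The other 42 rows had too few reads to be tested, and 19 of them had none in any library. Those 19 held 13 ligands (among them Il17a, Il17f, Il13, Il3, Il9, Il21, Il22 and Il31), 2 inhibitors and 4 receptor rows. The 23 rows with counts reached at most 19 in a library, in Il17rb, a chain of the IL-25 receptor, which had 19 and 8 counts in the libraries labelled knockout, against 6 and 0 in controls. Il33, the alarmin that binds Il1rl1, had 2 and 2 counts in the libraries labelled knockout, against 1 and 0 in controls. Il11, the gp130 ligand, had 6 and 2 counts in the libraries labelled knockout, against 7 and 5 in controls. At this depth no difference could be read from such counts. Il11ra2 had at most 1 count on each of its 3 rows, and 59.3% of its 50-base windows also occur in Il11ra1, so reads of these copies cannot be assigned with certainty.

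No interleukin or receptor gene passed the test between the groups. Over the whole table edgeR's quasi-likelihood test called 0 of 14963 genes (0% called) at an adjusted p of 0.05, and 278 had an unadjusted p under 0.05 (1.86%). Of the 43 tested members, 0 were called by edgeR, DESeq2 or limma-voom, and 1 (Il20ra) had an unadjusted p under 0.05 by edgeR, against 0 by DESeq2 (1.56% of all tested genes) and 0 by limma-voom (1.66%). DESeq2 called 23 genes in the whole table (0.154%). The fold changes of the members centred on 0.01 (log2), against -0.01 over all tested genes. Receptors had a median of 0.08, with 17 higher and 11 lower, and ligands a median of -0.11, with 4 higher and 9 lower, where 48.8% of all tested genes were higher and 51.2% lower. The ligand median lay between -0.11 and 0.00 under the other tools, scalings and filters. For 28 of the 43 the log2 fold change was under 0.2 in size.

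The 4 tested members with the smallest p in each direction all had an adjusted p of 1.00 by edgeR's quasi-likelihood test. On the higher side, the log2 fold change was 0.77 ± 0.51 (SE) for Il7r, 0.52 ± 0.36 for Il15ra, 0.56 ± 0.40 for Il20rb and 0.68 ± 0.51 for Il18r1. On the lower side it was -1.24 ± 0.52 for Il20ra, -0.59 ± 0.32 for Il17rd, -0.36 ± 0.35 for Il18 and -0.58 ± 0.66 for Il1a. Il20ra rested on 25 and 14 counts in the libraries labelled knockout, against 36 and 64 in controls. The log2 fold change of Il7r was 1.82 without control replicate 1 and 0.18 without control replicate 2, each resting on 1 control library.

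**Figure D4:**
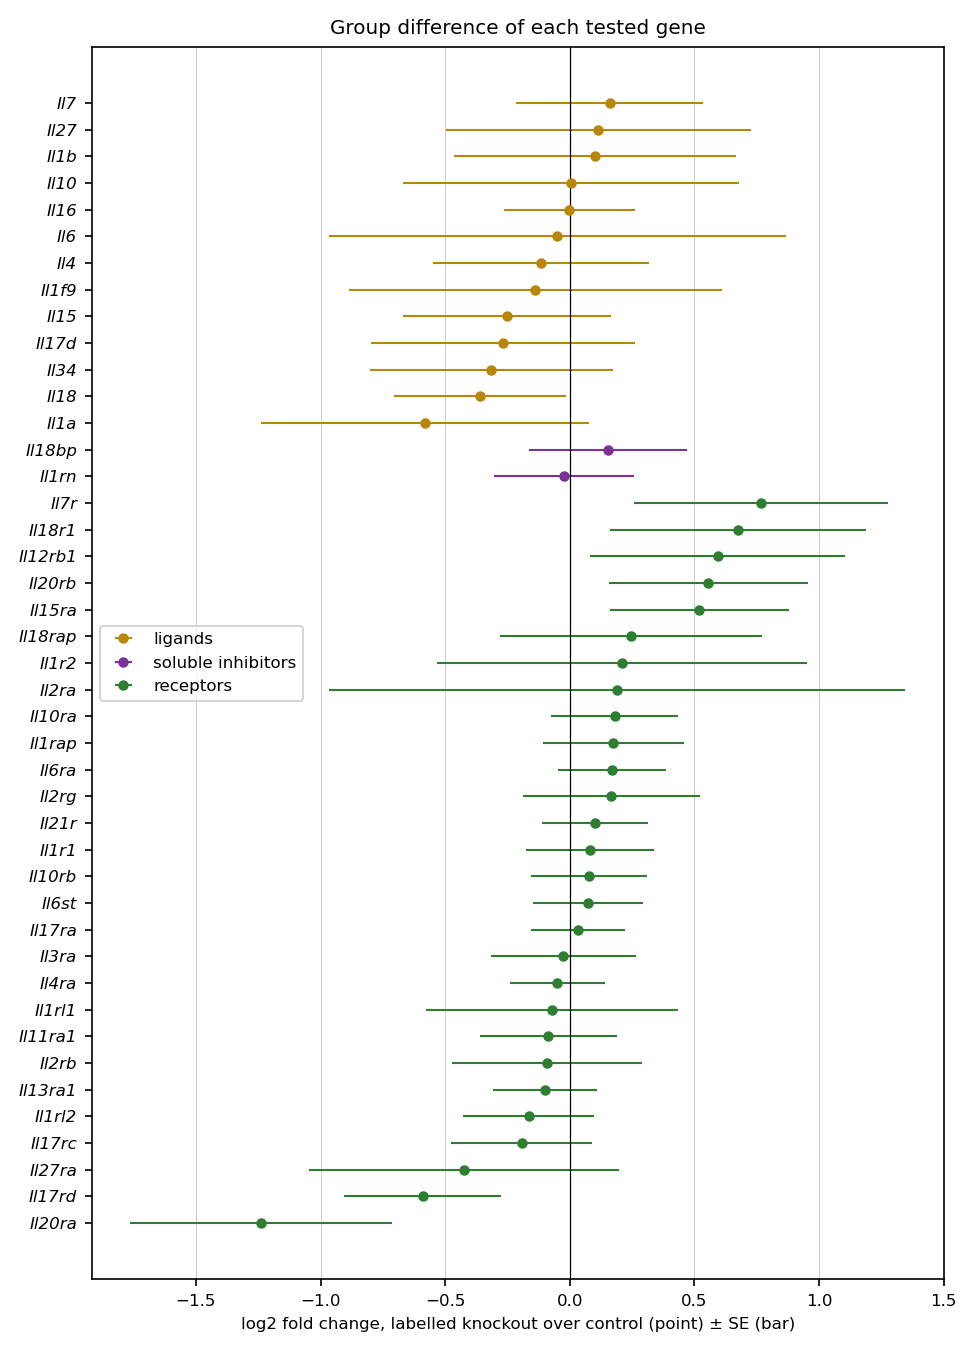
Log2 fold change (labelled knockout over control, point) with its standard error (bar) for the 43 tested genes by class, n = 2 libraries per group. Most bars cross 0, and the ends of the receptor class are Il7r at 0.77 and Il20ra at -1.24.

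By CPM, 8 of the 43 tested members (18.6%) had groups that did not overlap, close to the 22% of all tested genes. Il18r1, Il20rb, Il15ra and Il21r were on the higher side (10.8% of all tested genes), and Il34, Il20ra, Il17rd and Il4ra on the lower (11.3%). Il4ra belongs there by a narrow margin, with 143 and 152 CPM in the libraries labelled knockout, against 153 and 153 CPM in controls.

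The lowest or highest value often fell in the same library. Control replicate 2 was the lowest library for 23 of the 43 tested members (53.5%), against 26.5% of all tested genes, and these 23 included 7 of 13 ligands and 15 of 28 receptors. Control replicate 1 was the highest for 16 (37.2%), against 23.6% of all genes. The macrophage marker sum (above) was also lowest in control replicate 2, although Cd14 was lowest in replicate 1 labelled knockout. A list of 8 neutrophil markers summed to 8196 and 8991 TPM in the libraries labelled knockout, against 11517 and 3732 TPM in controls. The stromal sum was highest in control replicate 2, as were 6 of its 11 markers, led by Col1a1 and Col1a2, while Eng and Ly6a were lowest there. The part of cell composition in these levels was not tested.

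The direction of the group ratio differed between the replicate numbers for most members. Replicate number cannot be told apart here from the difference in Xist and Ddx3y. Within replicate 1 the median log2 ratio of the libraries labelled knockout over control was -0.45 for ligands and -0.12 for receptors, and within replicate 2 it was 0.21 for ligands and 0.31 for receptors. The sign was the same in both replicates for 12 of 43, of which 6 were higher and 6 lower. Of the 31 with opposite signs, 22 were lower in replicate 1 and higher in replicate 2. The share of opposite signs over all tested genes was not counted, so this split cannot be called particular to the members.

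**Figure D5:**
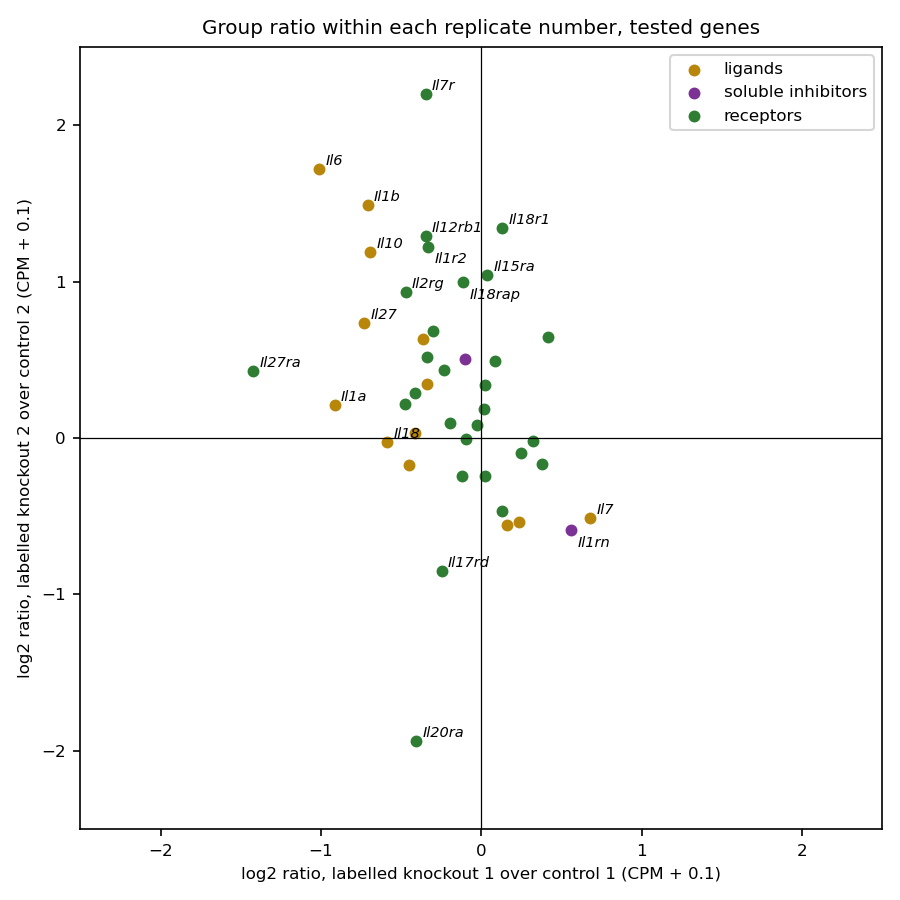
Log2 ratio of labelled knockout over control (CPM + 0.1) within replicate 1 (x axis) and within replicate 2 (y axis), 1 point per tested gene coloured by class. The upper left area holds 22 of the 43 genes, Il7r and Il6 among them, and Il20ra lies lowest.

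Genes of the pathways downstream were likewise not called. Of 11 tested JAK kinases and STAT factors, 0 passed in either direction (8 higher, 3 lower, median log2 fold change 0.06). Of 14 JAK-STAT inhibitors, 0 passed (7 higher, 7 lower, median -0.00), the smallest p being that of Socs3, which ends gp130 signalling. Socs3 had 27.4 and 46.0 TPM in the libraries labelled knockout, against 35.5 and 94.8 TPM in controls (log2 fold change -0.87, SE 0.47, with edgeR's adjusted p = 1.00). Control replicate 2 was the highest for Socs3, and control replicate 1 lay between the libraries labelled knockout. Of 14 IL-1 and IL-17 adaptors (median 0.03) and 8 inflammasome and processing genes (median 0.18), 0 passed. Of 19 tested partner receptors and cytokines, 0 passed (13 higher, 6 lower, median 0.11). Among them Lepr, the leptin receptor that marks marrow stroma, had 1.34 and 1.24 TPM in the libraries labelled knockout, against 2.10 and 1.94 TPM in controls. Lepr values did not overlap between the groups (log2 fold change -0.70, SE 0.36, with edgeR's adjusted p = 1.00). The same held, on the lower side, for Lif and Ctf1 of this list and for 11.3% of all tested genes. Lifr, the receptor for leukaemia inhibitory factor, had 19.3 and 13.1 TPM in the libraries labelled knockout, against 15.6 and 32.04 TPM in controls.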

How the data were processed

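Read counts per gene came from 1 table deposited by the authors for 4 libraries; per the labels' protocols, Trizol RNA and TruSeq v2 mRNA libraries were used, a kit that does not mark strand. Trimmomatic, HISAT2, featureCounts and mm10 are named in the submitters' processing notes, without versions. The deposited table also gives exon lengths, used here for TPM. How multiply mapped reads were counted is not given in the sources used here. Titles gave each library's group and replicate number.

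The deposited counts entered edgeR 4.0.16 (R 4.3.3) with filterByExpr, TMM scaling and the quasi-likelihood test of group alone. P-values were adjusted by Benjamini-Hochberg over 14963 genes, at 0.05. A standard error was derived from the log2 fold change and the F statistic. Ratios within a replicate number used CPM + 0.1. Alternatives were DESeq2 1.42.0, limma-voom (limma 3.58.1), other scalings and filters, a replicate block and leaving out each library. The fit was tested on simulated counts that held no difference between replicate numbers, so this does not show how it behaves with such a difference. P-values measure only the spread between these samples.

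Members with a mean of at least 1 CPM are given in every library, and the 4 with the smallest p in each direction with their fold change. The members and the lists were chosen with earlier results of these data known. All 85 rows were found in GENCODE M21, 83 with the same coordinates. Of the tested members, 15 overlap exons of another gene, 5 of them over more than 10% of their exon bases (Il2rg, Il16, Il10rb, Il1a and Il27). The partners of Il2rg and Il10rb lie on the same strand, and those of Il16, Il1a and Il27 on the opposite one, which this kit cannot tell apart.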

Additional observations from a re-analysis of the deposited data

How the results depend on the processing

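With 2 libraries a group, leaving out a single library could reverse the sign of Il18, Il1a, both class medians and the ratio difference. The other members given with a fold change kept their direction. Leaving out each library in turn gave 0 to 196 called genes (196 without control replicate 1, 66 without control replicate 2) and 0 to 1 called members, with the lone library of a group assumed to vary like the others. It gave a difference in the ligand to receptor log2 ratio of -0.49 to 0.16, a ligand median of -0.38 to 0.31, a receptor median of -0.02 to 0.25, and log2 fold changes of -0.70 to 0.10 for Il18, -1.18 to 0.50 for Il1a, 0.18 to 1.82 for Il7r, 0.23 to 0.89 for Il15ra, 0.23 to 1.34 for Il18r1, 0.48 to 0.64 for Il20rb, -0.89 to -0.21 for Il17rd and -1.71 to -0.76 for Il20ra. Without control replicate 1, Il18 was at 0.10, Il1a at 0.50, and the ratio difference at 0.16. Without replicate 2 labelled knockout, the ratio difference was 0.0082. DESeq2 called 23 genes in the whole table, where edgeR called 0, and no member; the cause was not tested. The other scalings, filters and limma-voom, as well as the other class definitions for the ratio, left every call as reported, and likewise the direction of the 8 members given with a fold change, except that the filter of 5 CPM left Il20rb, Il18r1, Il20ra and Il1a untested, while the ligand median lay between -0.11 and 0.00. With a replicate block, edgeR called 0 genes and 0 members, and the medians were 0.00 for ligands and 0.10 for receptors. Deviations of same-numbered libraries correlated at 0.29 over all genes and 0.07 over members, and the labels do not say that the numbers pair animals. Counts under about 20 in a library limit the scarce members.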
